A study of Mus musculus with 16 samples.

Results

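The collagen genes were examined in quadriceps, the large muscle group of the front of the thigh. All symbols made of Col, a type number, a and a chain number were taken from the table of expression values, which gave 44 genes of 23970. RNA was sequenced from 16 male C57BL/6NTac mice aged 16 weeks, 1 library per mouse, in 4 groups of 4. CON mice had eaten a control diet (10% of energy from fat) and HFD mice a high-fat diet (60% of energy from fat) for 10 weeks. The pre mice were taken in the basal state, after the same treadmill acclimatization and fasting as the others, and the post mice 3 h after 1 maximal treadmill run, so that pre and post are different animals. The basal groups are named CON-pre and HFD-pre, and the exercised groups CON-post and HFD-post. Values are FPKM (fragments per kilobase of transcript, relative to the mapped fragments), which are scaled for transcript length, so that levels of different genes can be set side by side.

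Collagens are the triple-helical proteins of the extracellular matrix, each built of 3 chains. Fibrillar collagens form the tensile fibrils of endomysium, perimysium and tendon, type IV collagen forms the sheet of the basement membrane around each fibre and capillary, and type VI collagen forms beaded filaments that link the basement membrane to the interstitium. FACIT collagens attach to the surface of fibrils, and types II, IX, X and XI are typical of cartilage. Types II and XI also form fibrils, but are grouped here with the cartilage collagens. In muscle most interstitial collagen RNA is made by fibroblasts, so a bulk level joins the number of such cells with the RNA per cell, and fewer cells of a type and less RNA per cell cannot be told apart here.

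The genes fell into 8 fibrillar, 8 basement membrane, 7 cartilage, 6 type VI, 6 FACIT, 4 transmembrane and 5 other collagens. Testing was limited to genes whose FPKM averaged 0.5 or more across all 16 libraries, a limit that 26 of the 44 collagens and 11256 of all genes passed. The genes passing were 7 fibrillar, 5 basement membrane, 2 cartilage, 4 type VI, 5 FACIT and 3 other collagens, and no transmembrane collagen (0 of 4). The library totals ranged from 283575 to 329282 FPKM. The number of reads is not known from these values, but the relative depth read from low values ranged from 0.693 to 1.14. The FPKM of 8 muscle markers (Acta1, Ckm, Mb, Myh4, Myh1, Myh2, Tnnt3 and Mylpf) summed to 51073 to 70546 per library, against 710 to 1042 for 10 fibroblast markers.

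Upstream sequence was available for 35 of the 44 collagens in RefSeq GRCm38.p6, as 38 windows of 250 bases before to 50 bases after an annotated transcript start, which need not be the outermost start of the gene. 4 windows are given here, for the most abundant pair of type IV chain genes, which start head to head (Col4a1 and Col4a2) and for the 2 genes whose values the comparisons below turn on (Col6a6 and Col24a1). Capitals mark matches, on either strand, to 3 classical promoter motifs, namely TATAAA of the core promoter, then CCAAT of the proximal promoter, and lastly GGGCGG of promoters rich in G and C. The sequences run 5′ to 3′ along each gene. The Col4a1 window is chr8:11312777-11313076 on the minus strand, the Col4a2 window is chr8:11312555-11312854 on the plus strand, the Col6a6 window is chr9:105828036-105828335 on the minus strand and the Col24a1 window is chr3:145292222-145292521 on the plus strand.
Col4a1: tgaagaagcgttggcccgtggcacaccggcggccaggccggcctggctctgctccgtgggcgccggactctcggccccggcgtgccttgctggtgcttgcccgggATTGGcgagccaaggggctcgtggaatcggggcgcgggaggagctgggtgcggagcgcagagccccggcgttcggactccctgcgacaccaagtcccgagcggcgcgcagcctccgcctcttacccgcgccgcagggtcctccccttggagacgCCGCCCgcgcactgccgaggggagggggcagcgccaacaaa
Col4a2: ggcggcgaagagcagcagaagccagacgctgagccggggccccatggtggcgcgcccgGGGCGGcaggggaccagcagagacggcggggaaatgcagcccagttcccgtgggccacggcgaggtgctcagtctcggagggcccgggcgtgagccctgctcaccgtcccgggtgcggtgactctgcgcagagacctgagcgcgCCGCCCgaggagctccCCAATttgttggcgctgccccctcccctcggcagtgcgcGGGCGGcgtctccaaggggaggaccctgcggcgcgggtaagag
Col6a6: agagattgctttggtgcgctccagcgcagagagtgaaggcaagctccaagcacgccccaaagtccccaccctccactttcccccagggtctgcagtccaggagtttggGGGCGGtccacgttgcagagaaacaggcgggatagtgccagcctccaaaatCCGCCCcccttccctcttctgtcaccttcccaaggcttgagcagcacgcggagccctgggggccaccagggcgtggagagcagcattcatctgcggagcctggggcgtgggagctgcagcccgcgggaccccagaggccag
Col24a1: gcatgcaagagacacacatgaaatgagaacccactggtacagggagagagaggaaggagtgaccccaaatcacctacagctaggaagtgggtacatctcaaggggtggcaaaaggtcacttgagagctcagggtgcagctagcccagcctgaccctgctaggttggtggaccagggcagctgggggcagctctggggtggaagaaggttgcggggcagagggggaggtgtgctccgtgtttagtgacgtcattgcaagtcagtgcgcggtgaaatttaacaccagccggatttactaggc

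The Col4a1 and Col4a2 windows shared 78 bases and were 74.0% and 73.7% G or C, and each held CCAAT once. The Col6a6 window held GGGCGG on 1 strand or the other at 2 positions, and the Col24a1 window held none of the 3 motifs. Over all 38 collagen windows, GGGCGG was present in 23 (60.5%), against 35.7% of all 32851 windows. CCAAT was present in 13 (34.2%, against 37.4% of all windows) and TATAAA in 5 (13.2%, against 13.6%), among them that of Col3a1. These matches describe the letters only, and the collagen windows are not independent, since some of them overlap and some genes have more than 1.

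The highest levels belonged to the fibrillar collagens. Col1a2 and Col1a1, the chains of type I collagen, and Col3a1, the chain of type III collagen, averaged 42.5, 24.5 and 36.7 FPKM over the 16 libraries. Col4a1 and Col4a2, the ubiquitous type IV chains, averaged 21.5 and 15.4 FPKM, and the type VI chains Col6a1 and Col6a2 averaged 18.3 and 16.6 FPKM. Together the 44 genes made up 112 to 396 FPKM per library (median 197), which was 0.0375% to 0.120% of the library total. Fibrillar collagens accounted for 44.5% to 59.8% of that sum, basement membrane collagens for 15.8% to 26.7% and cartilage collagens for 0.271% to 1.79%. The order of the 3 classes was therefore the same in each of the 16 libraries.

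**Figure D1:**
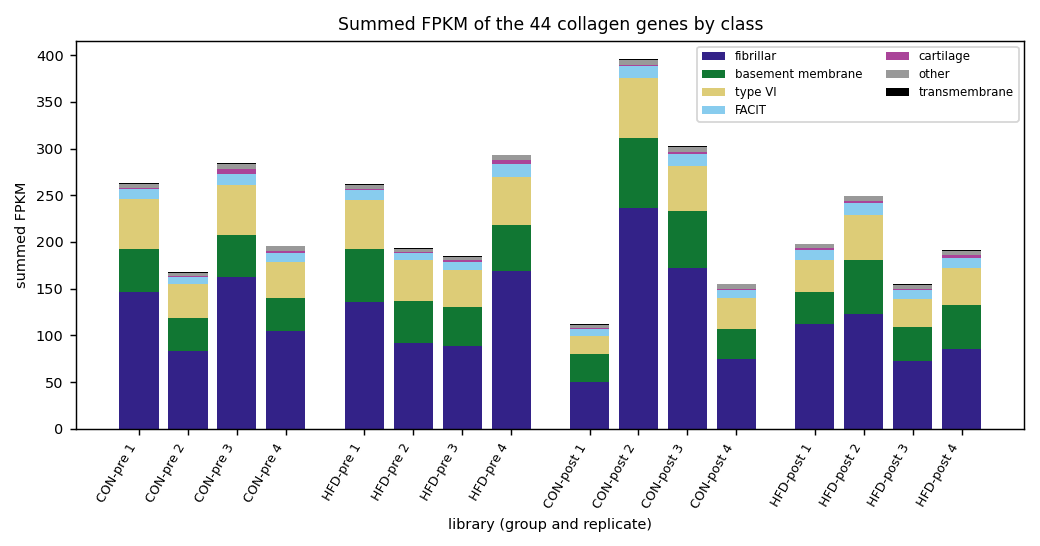
Stacked bars of the summed FPKM of the 44 collagen genes by class, 1 bar per library, ordered by group and replicate. The sum ranged from 112 FPKM in CON-post 1 to 396 FPKM in CON-post 2, and fibrillar collagens were the largest class in every bar.

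Among the minor fibrillar chains, Col5a2, Col5a1 and Col5a3 of type V collagen, which nucleates fibrils, averaged 6.00, 4.35 and 3.97 FPKM. Col24a1 averaged 0.885 FPKM and Col27a1 stayed under the limit for testing at 0.291 FPKM. In the basement membrane class, Col15a1 and Col18a1, which carry the endostatin-type domains, averaged 4.95 and 2.16 FPKM. The alternative type IV chain Col4a5 averaged 0.615 FPKM, and Col4a3, Col4a4 and Col4a6 lay below the limit at 0.361, 0.307 and 0.0868 FPKM. Of the type VI chains, Col6a3 averaged 7.15 FPKM and the alternative chain Col6a6 averaged 0.913 FPKM, whereas its neighbours on the chromosome, Col6a5 and Col6a4, averaged 0.0534 and 0.00613 FPKM.

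The highest FACIT collagen was Col22a1, a marker of the myotendinous junction, at 4.19 FPKM, followed by Col14a1, Col12a1, Col16a1 and Col20a1 at 2.52, 1.81, 1.20 and 0.568 FPKM, and Col19a1 lay below the limit at 0.138 FPKM. In the other class Col7a1, the anchoring fibril collagen, averaged 2.26 FPKM and the short-chain collagens Col8a1 and Col8a2 averaged 1.23 and 0.723 FPKM, while Col28a1 and Col26a1 averaged 0.196 and 0.0583 FPKM. The transmembrane collagens Col23a1, Col13a1, Col17a1 and Col25a1 averaged 0.306, 0.174, 0.0986 and 0.0426 FPKM.

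Collagen RNA varied more between mice of 1 group than most genes did. The SD within groups on the log2(FPKM + 0.5) scale had a median of 0.37 over the 26 collagens tested, against 0.18 over all genes tested, and 25 of the 26 collagens lay above the median of all genes. It was widest in fibrillar collagens, with a median of 0.47 and a maximum of 0.76 in Col3a1, and had a median of 0.35 in the basement membrane class. Only Col6a6, at 0.16, was below the median of all genes, and it averaged 0.913 FPKM, a level at which this scale understates the spread.

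Col1a2 is given as the most abundant collagen. It measured 47.3, 28.1, 58.6 and 35.9 FPKM in CON-pre 1 to 4 and 45.6, 28.7, 30.03 and 63.1 FPKM in HFD-pre 1 to 4. After exercise it measured 20.9, 71.4, 62.8 and 27.9 FPKM in CON-post and 49.7, 46.8, 32.0 and 31.9 FPKM in HFD-post. Both the highest and the lowest of the 16 libraries were CON-post mice, and all groups overlapped.

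Col3a1 showed the same spread more strongly. Its FPKM were 51.3, 28.1, 47.8 and 32.9 in CON-pre, 44.5, 29.7, 27.3 and 49.2 in HFD-pre, 10.98, 93.5, 52.6 and 22.7 in CON-post and 22.5, 35.6, 17.0 and 22.0 in HFD-post. The CON-post libraries thus spanned all the other libraries on both sides.

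The same libraries carried these deviations through most of the family. Within CON-post, replicate 1 was the lowest library for 21 of the 26 collagens and replicate 2 the highest for 18, whereas over all genes tested replicate 1 was the lowest for 48.0% and replicate 2 the highest for 42.6%. The median deviation from the group mean was −0.93 in CON-post 1 and 0.82 in CON-post 2 for fibrillar collagens, and −0.54 and 0.64 for basement membrane collagens, in log2 units. Within HFD-post, replicate 2 was the highest library for 16 of the 26 collagens (34.2% of all genes). In the pre groups HFD-pre 4 was the highest for 13 (37.9% of all genes), HFD-pre 3 the lowest for 15 (28.0%) and CON-pre 2 the lowest for 14 (35.9%).

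**Figure D2:**
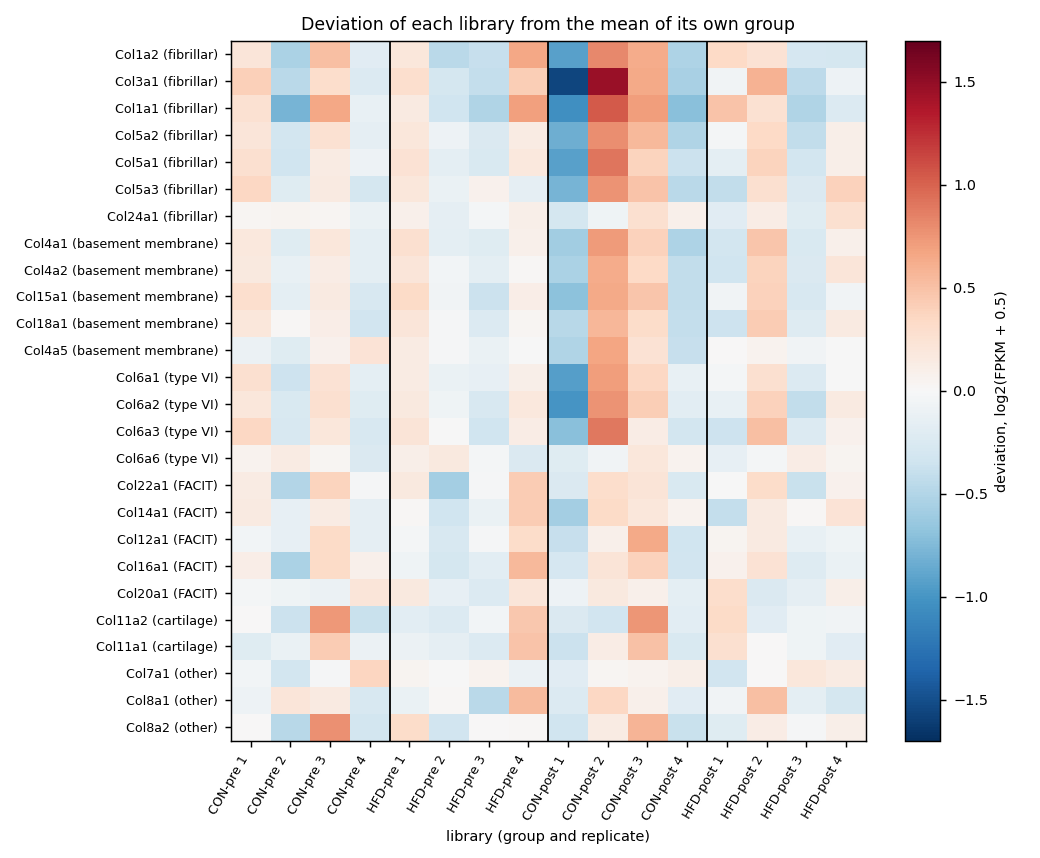
Deviation of each library (columns) from the mean of its own group for the 26 collagen genes tested (lines of the map, by class), in log2(FPKM + 0.5), with red above and blue below the group mean. CON-post 1 and CON-post 2 stand apart in opposite directions in most fibrillar, basement membrane and type VI collagens. Col6a6 and Col24a1 deviate less, at −0.20 and −0.29 in CON-post 1 and −0.05 and −0.07 in CON-post 2. They average 0.913 and 0.885 FPKM, levels at which this scale understates deviations.

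Markers of other cells moved with these libraries in part. The 10 fibroblast markers, all of them found, summed to 747 to 888 FPKM in CON-pre, 710 to 831 in HFD-pre, 726 to 1042 in CON-post and 746 to 960 in HFD-post, with CON-post 1 the lowest and CON-post 2 the highest of their group. The 6 macrophage markers summed to 34.9 to 55.1, 31.7 to 41.2, 29.0 to 75.4 and 24.3 to 50.4 FPKM in the same order, again with CON-post 1 the lowest and CON-post 2 the highest of CON-post. The adipocyte and endothelial sums were also lowest of their group in CON-post 1, at 375 and 60.2 FPKM, but highest in CON-post 4 and CON-post 3. The sum of the smooth muscle and pericyte markers was highest in CON-post 1, at 840 FPKM. That sum was mostly Des, which averaged 675 FPKM over all libraries, against at most 49.7 FPKM (Rgs5) for the rest of the list. It therefore says little about smooth muscle or pericytes. No defining marker of the fibroblast or macrophage list was at 0 in all libraries. Their part in the collagen values was not tested.

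The ratio of 2 chains of 1 collagen type varied less between libraries than either chain did, in each of the 4 pairs examined. The ratio of Col4a1 to Col4a2 lay between 1.22 and 1.55 and was above 1 in 16 of 16 libraries, a 1.27-fold range, whereas the 2 genes ranged 2.55-fold and 2.30-fold over the same libraries. The ratio of Col1a1 to Col1a2 lay between 0.441 and 0.655 (1.49-fold range) and was above 1 in 0 of 16 libraries, while the chains ranged 4.37-fold and 3.41-fold. Type I collagen is made of 2 chains from Col1a1 and 1 from Col1a2.

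The ratio of Col5a1 to Col5a2 lay between 0.627 and 0.826 and that of Col6a1 to Col6a2 between 0.979 and 1.41. By group, Col6a1 to Col6a2 averaged 1.05 ± 0.058 (SD, n = 4) in CON-pre, 1.05 ± 0.074 in HFD-pre, 1.16 ± 0.064 in CON-post and 1.24 ± 0.15 in HFD-post, and the ratios were not tested.

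Differences between groups were tested in limma with Benjamini-Hochberg adjustment over the 11256 genes, and fold changes are on the log2(FPKM + 0.5) scale, which understates those of low genes. The first question was whether HFD alone altered collagen expression (HFD-pre against CON-pre). None of the 26 collagens passed an adjusted p under 0.05 in limma (0 up- and 0 down-regulated), where 0.346% of all genes did. At an unadjusted p under 0.05, 1 was higher and 1 lower in HFD-pre (2 of 26, against 8.25% of all genes, 2.5% higher and 5.76% lower), with 1 without CON-pre replicate 4 and 3 without HFD-pre replicate 1. The median log2 fold change was 0.02 over the 26 collagens, −0.01 over fibrillar and 0.25 over basement membrane collagens, and −0.03 over all genes. The signs of the first and second of these depended on single libraries, with −0.04 without HFD-pre replicate 4 to 0.15 without CON-pre replicate 3 over the 26 collagens, and −0.15 without CON-pre replicate 2 to 0.13 without CON-pre replicate 3 over fibrillar collagens. The basement membrane median was 0.16 without HFD-pre replicate 1 and at most 0.31.

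Markers of other cells differed between the same groups. The sums of the 8 muscle markers did not overlap, at 64206 to 70546 FPKM in CON-pre and 56474 to 62015 in HFD-pre, with 0 called. At an unadjusted p under 0.05 in limma Ckm and Tnnt3 were lower in HFD-pre, but Mb was higher (log2 fold change 0.41). The library totals did not overlap either, at 305490 to 327559 FPKM in CON-pre and 294867 to 303652 in HFD-pre. Of the 8 endothelial markers 0 were called and 2 were higher at an unadjusted p under 0.05 (Cdh5 and Tie1), and the list's median was 0.19 on the log2 scale. Of the 7 adipocyte markers 2 were called in limma, Lep, the gene of the fat-cell hormone leptin, at 2.34 (adjusted p = 0.0138) and Cfd, the gene of adipsin, at −1.97 (adjusted p = 0.00440). These genes were picked out after their values were seen, and the part of such cells in the collagen values was not tested.

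The collagen higher in HFD-pre at the unadjusted level was Col24a1, a minor fibrillar chain. Its FPKM were 0.880, 0.889, 0.873 and 0.736 in CON-pre and 1.35, 1.08, 1.21 and 1.37 in HFD-pre. The groups did not overlap, which was the case for 1 of the 26 collagens in this direction and for 1.68% of all genes. The log2 fold change was 0.38 (SE 0.14, 95% interval 0.09 to 0.68, adjusted p = 0.442 in limma), and the ratio of the means was 1.48. The collagen lower in HFD-pre was Col7a1.

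Col7a1 measured 2.61, 2.09, 2.66 and 3.63 FPKM in CON-pre and 2.08, 2.00, 2.12 and 1.83 in HFD-pre, where the highest HFD-pre library lay just above the lowest CON-pre library. Its log2 fold change was −0.35 (SE 0.14, 95% interval −0.64 to −0.06, adjusted p = 0.467 in limma). After exercise Col7a1 measured 1.95, 2.38, 2.44 and 2.53 FPKM in CON-post and 1.43, 1.94, 2.27 and 2.17 in HFD-post, and these groups overlapped. The 4 skin keratins Krt5, Krt14, Krt1 and Krt10 differed between the same groups, with sums of 1.77 to 4.71 FPKM in CON-pre and 0.0627 to 0.455 in HFD-pre, which did not overlap. Of the 3 tested 0 were called and 1, Krt14, was lower at an unadjusted p under 0.05 and listed at 0 in all HFD-pre libraries. In the exercised groups the keratin sum was highest in CON-post 1, at 13.6 FPKM, which had the lowest Col7a1 of its group, and in HFD-post 3, at 19.3 FPKM, which had the highest. The part of skin RNA in the Col7a1 values was not tested.

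For the major chains the 95% intervals of the diet difference included 0. The log2 fold change of HFD-pre against CON-pre was −0.04 for Col1a2 (95% interval −0.80 to 0.71), −0.09 for Col3a1 (−1.07 to 0.90), 0.26 for Col4a1 (−0.28 to 0.79) and 0.08 for Col6a1 (−0.46 to 0.62). Intervals of this width do not separate an unchanged level from a difference of the size of the point estimates.

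The second question was the response to the maximal run, in CON (CON-post against CON-pre) and in HFD (HFD-post against HFD-pre). In CON 0 of the 26 collagens passed the adjusted p in limma (1.11% of all genes) and 1 passed unadjusted, which was lower after exercise (11.1% of all genes passed, and 5% were lower). In HFD 0 passed the adjusted p (0.542% of all genes, 0.489% up-regulated) and 3 passed unadjusted, all lower (11.7% of all genes passed, and 3.22% were lower). The unadjusted count in CON was 4 without CON-post replicate 2, 3 without CON-post replicate 3 and 0 without CON-pre replicate 2, while leaving out HFD-post replicate 4 gave 2, and in HFD it was 5 without HFD-post replicate 2, 2 to 4 without any other 1 library, and 6 when the fit held HFD-pre and HFD-post alone. The study used a different test, from Cufflinks. Its pathway analysis of the genes that changed after exercise in HFD reported extracellular matrix remodelling.

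Fibrillar chains had lower log2 means after exercise in both diets, though no chain passed the adjusted p in either. All 7 tested were below 0 in each diet, with a median log2 fold change of −0.19 in CON and −0.33 in HFD, where 51.6% and 40.7% of all genes were below 0. This count leaves out the fibril-forming type XI chains of the cartilage class, of which Col11a1 was at 0.06 in CON and 0.08 in HFD, and Col11a2 at −0.26 and 0.08. The 4 type VI chains tested were also below 0 in both diets, with medians of −0.27 and −0.31, but without CON-post replicate 1 the count in CON was 1 of 4 and the median 0.02. Of the 5 basement membrane collagens tested 2 were below 0 in CON and 4 in HFD, with medians of 0.13 and −0.07, and without CON-post replicate 2 the CON count was 3 of 5 and the median −0.09. In HFD without 1 library the basement membrane count was 3 to 5 of 5 and the median ranged from −0.20 without HFD-post replicate 2 to −0.0065 without HFD-pre replicate 1. FACIT collagens differed in sign, with 1 of 5 below 0 in each diet and medians of 0.13 and 0.14, but 4 of 5 were below 0 in CON without CON-post replicate 3 and 3 of 5 in HFD without HFD-pre replicate 2. Of the 3 other and 2 cartilage collagens tested, 1 of each class was below 0 in CON, and 2 and 0 were in HFD. The chains of a class share their libraries and vary together, so these counts are not counts of independent events. Without CON-post replicate 1 the fibrillar count in CON was 2 of 7 and the median 0.22, without CON-post replicate 4, CON-pre replicate 1 or CON-pre replicate 3 the count was 4 of 7, and in HFD the lowest count was 5 of 7, without HFD-pre replicate 4.

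**Figure D3:**
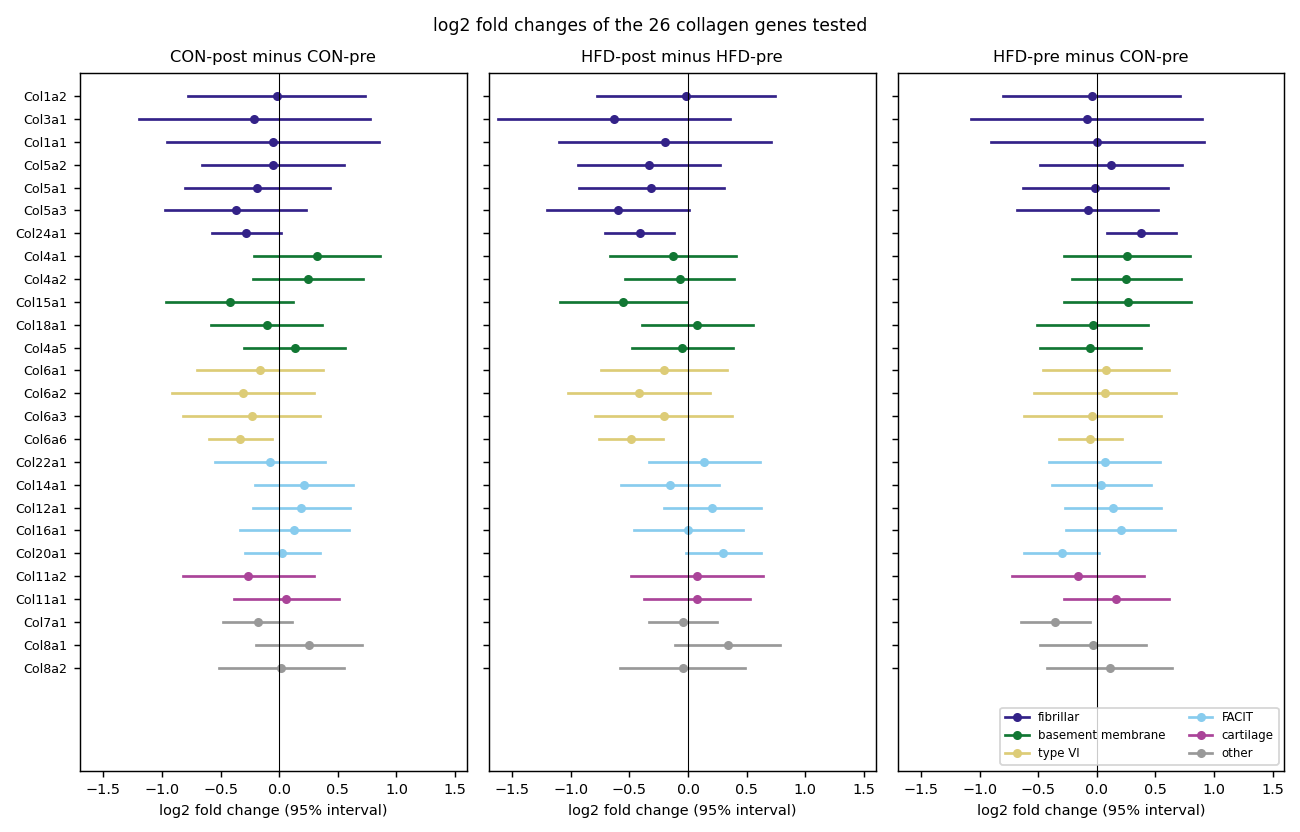
log2 fold changes (points) with 95% intervals (lines) of the 26 collagen genes tested, coloured by class, for CON-post minus CON-pre, HFD-post minus HFD-pre and HFD-pre minus CON-pre. The 7 fibrillar and 4 type VI genes lie left of 0 in both exercise panels, and most intervals include 0.

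The sign of the largest fibrillar genes depended on the scale. The mean FPKM of Col3a1 was 40.0 ± 11 (SD, n = 4) in CON-pre and 44.9 ± 37 in CON-post, a ratio of 1.12, while its log2 fold change was −0.21 (95% interval −1.20 to 0.78). In HFD the mean was 37.7 ± 11 before and 24.3 ± 8.0 after exercise, with a log2 fold change of −0.63 (95% interval −1.62 to 0.36). The log2 fold changes of Col1a2 were −0.02 in both diets.

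Col4a1 measured 20.8, 15.7, 20.9 and 16.3 FPKM in CON-pre and 15.02, 38.2, 30.3 and 15.8 in CON-post. It measured 26.6, 19.5, 19.0 and 23.4 FPKM in HFD-pre and 16.1, 28.0, 16.7 and 21.3 in HFD-post. Of the CON-post libraries 2 lay above all CON-pre libraries and the others, at 15.02 and 15.8, lay near the lowest of them. The log2 fold change was 0.32 (95% interval −0.22 to 0.86) in CON and −0.13 (−0.66 to 0.41) in HFD, and its interaction was −0.44 (−1.20 to 0.31). Col4a2 gave 0.25 and −0.07.

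Col6a1, the most abundant type VI chain, measured 22.4, 14.3, 21.9 and 16.4 FPKM in CON-pre and 8.32, 27.2, 21.1 and 14.9 in CON-post. It measured 21.6, 18.1, 17.7 and 21.0 FPKM in HFD-pre and 16.5, 20.4, 14.4 and 16.8 in HFD-post. CON-post held both the lowest and the highest of the 16 libraries, and the log2 fold change was −0.16 in CON and −0.20 in HFD, with intervals that include 0. Col22a1, the most abundant FACIT collagen, measured 4.39, 2.62, 5.27 and 3.86 FPKM in CON-pre, 3.03, 4.64, 4.37 and 2.99 in CON-post, 4.72, 2.59, 4.06 and 5.76 in HFD-pre and 4.59, 5.80, 3.43 and 4.86 in HFD-post. All groups overlapped in Col22a1.

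Col6a6, an alternative chain of type VI collagen related to Col6a3, had the smallest p of the 26 collagens in both exercise contrasts. Its FPKM were 1.21, 1.30, 1.17 and 0.882 in CON-pre and 1.19, 1.26, 1.04 and 0.831 in HFD-pre, and after exercise 0.627, 0.751, 0.985 and 0.856 in CON-post and 0.517, 0.598, 0.732 and 0.659 in HFD-post. HFD-pre and HFD-post did not overlap, as was the case for 2 of the 26 collagens in this direction (Col5a3 was the other) and for 2.1% of all genes. In CON 1 post library lay between the pre libraries. Of the 8 post libraries 6 lay below the lowest pre library.

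The log2 fold change of Col6a6 was −0.33 in CON (SE 0.13, 95% interval −0.60 to −0.06, adjusted p = 0.307) and −0.48 in HFD (SE 0.13, −0.76 to −0.21, adjusted p = 0.132) in limma. Averaged over the diets it fell by 0.41 on the log2 scale after exercise (SE 0.09, 95% interval −0.60 to −0.22, adjusted p = 0.0180 in limma). The mean FPKM was 1.11 ± 0.17 (SD, n = 8) before and 0.715 ± 0.15 after exercise. Leaving out libraries or changing the processing gave adjusted p values from 0.00838 to 0.0457 for this average. The interaction of diet and exercise was −0.15 (95% interval −0.54 to 0.23).

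Col6a6 was the only 1 of the 26 collagens that passed in the contrast averaged over the diets (1 down-regulated, 0 up-regulated), where 0.915% of all genes were down-regulated, 2.95% up-regulated and 3.86% passed in either direction. At an unadjusted p 4 of 26 passed, all lower (18.5% of all genes passed, and 6.8% were lower), with 8 passing without CON-post replicate 2 and 3 to 5 without any other 1 library. The other type VI chains shared its sign, with averaged values of −0.18 for Col6a1 (adjusted p = 0.634 in limma), and wider spread. Of the 10 fibroblast markers 0 were called in the same contrast and 1 was higher at an unadjusted p under 0.05. Of the 8 muscle markers 0 were called and 2 were lower at that level. Single genes of other marker lists were called higher after exercise, chosen here after their values were seen. They were Pecam1 of the 8 endothelial markers (log2 fold change 0.36, adjusted p = 0.00141 in limma), Des of the 6 smooth muscle and pericyte markers (0.23, adjusted p = 0.0322) and Prx of the 5 Schwann cell markers tested (0.39, adjusted p = 0.0239). Des averaged 675 FPKM, against at most 49.7 FPKM (Rgs5) for the rest of its list, so its call cannot be assigned to smooth muscle or pericytes. At an unadjusted p under 0.05 the endothelial, smooth muscle and Schwann cell lists had 3, 3 and 2 genes higher and 0 lower, and the 7 adipocyte markers had 2 higher. Their part in the collagen values was not tested.

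Col24a1 was the next collagen in this contrast. After exercise it measured 0.401, 0.555, 0.837 and 0.673 FPKM in CON-post and 0.649, 0.931, 0.639 and 1.09 in HFD-post. By group means HFD-pre was the highest and CON-post the lowest group, and the HFD-post libraries overlapped those of CON-pre. Averaged over the diets the log2 fold change of post against pre was −0.35 (SE 0.10, 95% interval −0.56 to −0.14), which did not pass (adjusted p = 0.0614 in limma). Averaged over the exercise states, that of HFD against CON was 0.31 (SE 0.10, 95% interval 0.11 to 0.52, adjusted p = 0.194 in limma).

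The 2 others with an unadjusted p under 0.05 were Col15a1, a basement membrane zone collagen of muscle and capillaries, and Col5a3. Col15a1 measured 6.34, 4.52, 5.78 and 4.16 FPKM in CON-pre and 2.09, 6.06, 5.34 and 2.66 in CON-post, and 7.94, 5.99, 4.73 and 6.80 FPKM in HFD-pre and 3.95, 5.54, 3.32 and 3.94 in HFD-post. Its averaged log2 fold change was −0.49 (SE 0.18, 95% interval −0.87 to −0.10, adjusted p = 0.159 in limma). Col5a3 measured 5.11, 4.03, 4.63 and 3.90 FPKM in HFD-pre and 1.91, 3.42, 2.23 and 3.75 in HFD-post, with no overlap, and 6.10, 3.99, 5.23 and 3.70 in CON-pre and 1.80, 6.28, 5.11 and 2.41 in CON-post. The averaged log2 fold change of Col5a3 was −0.49 (SE 0.20, 95% interval −0.91 to −0.06, adjusted p = 0.209 in limma).

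**Figure D4:**
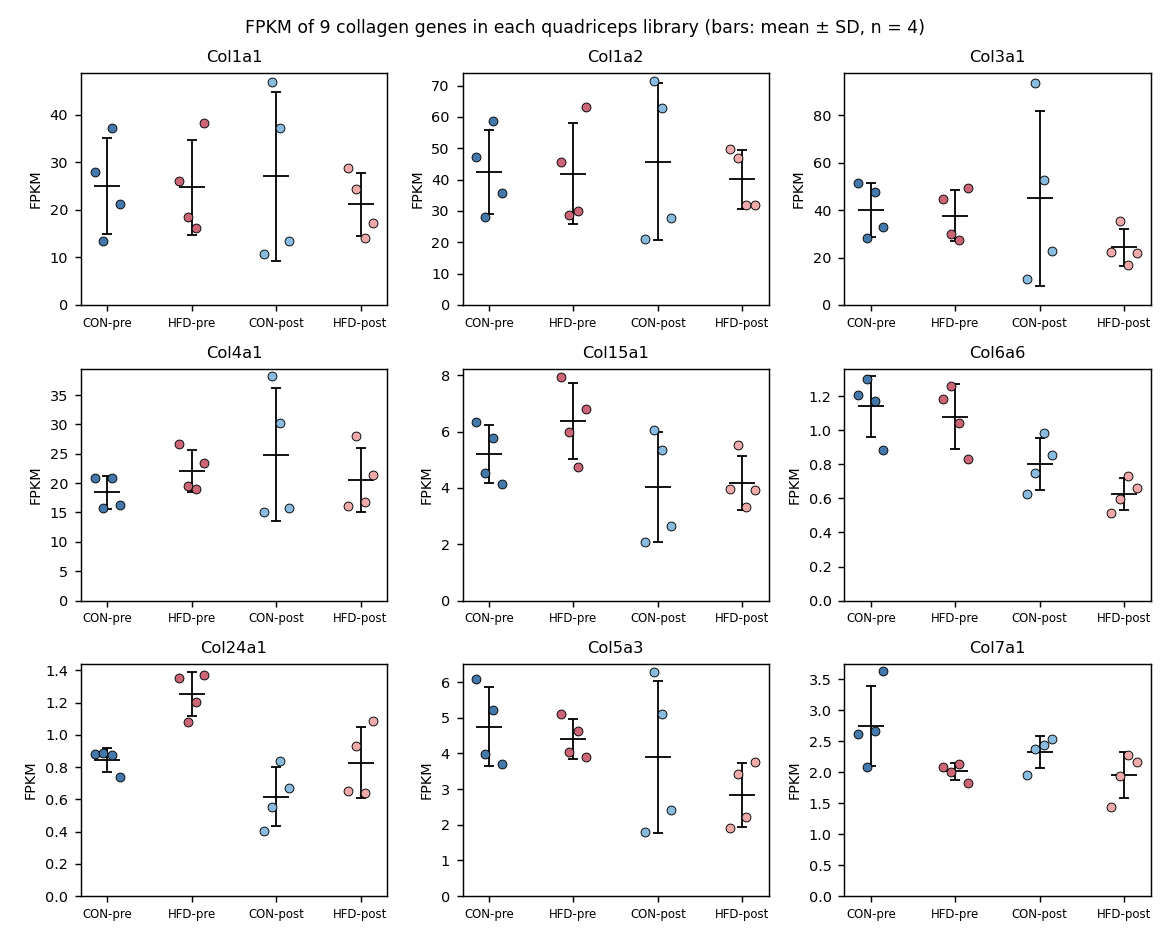
FPKM of 9 collagen genes in each library (points, 1 per mouse) with the mean and SD of each group of 4 (bars). Col6a6 is lower in both post groups, Col24a1 is highest in HFD-pre, and CON-post is the most widely spread group for Col1a1, Col1a2, Col3a1, Col4a1 and Col5a3.

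The remaining contrasts asked whether the 2 diets differed after exercise and whether the response depended on diet. In HFD-post against CON-post 0 of the 26 collagens passed in limma, adjusted or unadjusted, where 0.151% and 6.29% of all genes did. The unadjusted count was 3 without CON-post replicate 1, 2 without CON-post replicate 3 and 1 without HFD-post replicate 3. For the interaction 0 collagens passed at either level, and of all genes 0% passed adjusted and 3.16% unadjusted, while 1 collagen passed unadjusted without CON-post replicate 1. In HFD against CON averaged over the exercise states 0 passed the adjusted p (0.959% of all genes) and 2 passed unadjusted (10.4% of all genes), Col24a1 and Col7a1, the latter at −0.28 (95% interval −0.49 to −0.08, adjusted p = 0.245 in limma). A collagen whose response differed between the diets was therefore not detected in limma, with interaction intervals such as −1.82 to 0.98 for Col3a1 and −1.06 to 1.07 for Col1a2.

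Among the cartilage collagens, Col2a1 and Col10a1 were carried by a few libraries. Col2a1, the chain of type II collagen, measured 1.61 and 0.843 FPKM in CON-pre 3 and 4, 1.49 in HFD-pre 4, 0.587 and 1.06 in HFD-post 2 and 4, and at most 0.251 in the other libraries. Col10a1, the collagen of hypertrophic cartilage, measured 0.665 FPKM in CON-pre 3 and 0.590 in HFD-pre 4 and was listed at 0 in 8 libraries. Neither reached the mean for testing, and a value listed at 0 may be a failed estimate.

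The highest library of each group for Col11a1 was CON-pre 3 at 0.773 FPKM, HFD-pre 4 at 0.982, CON-post 3 at 0.886 and HFD-post 1 at 0.842. Col11a2 measured 0.842, 0.532, 1.72 and 0.525 FPKM in CON-pre, 0.549, 0.517, 0.654 and 1.14 in HFD-pre, 0.437, 0.386, 1.36 and 0.483 in CON-post and 1.07, 0.606, 0.694 and 0.709 in HFD-post. The highest library of each group was the same as for Col11a1. The log2 fold changes of both genes lay between −0.26 and 0.17 in HFD-pre against CON-pre and in both exercise contrasts, and no adjusted p passed in limma. The type IX chains Col9a1, Col9a2 and Col9a3 averaged 0.128, 0.0733 and 0.0625 FPKM.

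The summed FPKM of cartilage and bone markers was highest in the libraries that were highest for Col2a1 and Col10a1. The 8 markers (Acan, Hapln1, Matn1, Matn3, Ibsp, Bglap, Sp7 and Alpl) summed to 3.09 to 11.6 FPKM in CON-pre, 3.13 to 9.73 in HFD-pre, 3.38 to 5.06 in CON-post and 3.83 to 10.7 in HFD-post. The highest library of each pre group was CON-pre 3 or HFD-pre 4, and of each post group CON-post 3 or HFD-post 4, as it was for Col2a1 and Col10a1, although in CON-post 3 these were at only 0.0981 and 0.0396 FPKM. Of the markers 6 averaged under 0.5 FPKM and Matn1 was listed at 0 in all libraries. Alpl and Ibsp, at means of 4.06 and 1.23 FPKM, made up most of the sum, so its ranking says little about the cartilage markers Acan, Hapln1, Matn1 and Matn3.

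The sum of 8 tendon markers was highest in CON-pre 3 (220 FPKM), HFD-pre 4 (228 FPKM), CON-post 3 (194 FPKM) and HFD-post 1 (215 FPKM), which were the highest libraries of their groups for Col11a1 and Col11a2. Their part in the cartilage collagen values was not tested.

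**Figure D5:**
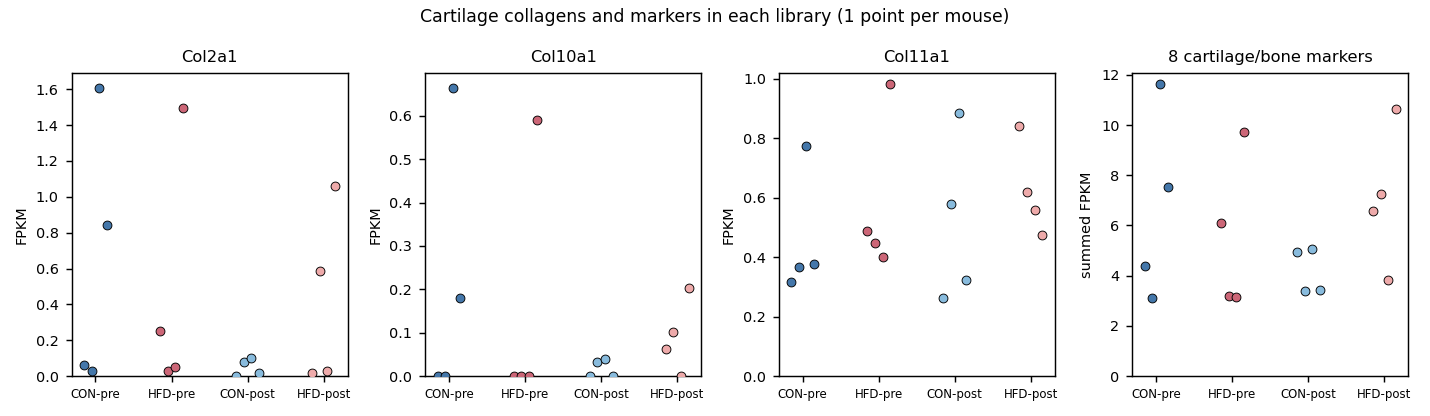
FPKM of Col2a1, Col10a1 and Col11a1 and summed FPKM of 8 cartilage and bone markers (mostly Alpl and Ibsp) in each library, 1 point per mouse. Col2a1 and Col10a1 are near 0 in most libraries, and the highest points of the pre groups belong to CON-pre 3 and HFD-pre 4 in every panel.

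Among the transmembrane collagens, Col17a1, a collagen of epidermal hemidesmosomes, measured 0.917 FPKM in HFD-post 3 and at most 0.111 in the other libraries. The skin keratins, at 19.3 FPKM in that library, summed to 13.6 in CON-post 1, where Col17a1 was 0.0590, to 1.77 to 4.71 FPKM in CON-pre and to at most 1.08 FPKM in the other libraries. Col23a1, the highest of this class, measured 0.213 to 0.429 FPKM in CON-pre, 0.237 to 0.304 in HFD-pre, 0.285 to 0.376 in CON-post and 0.263 to 0.400 in HFD-post, with all groups overlapping.

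Genes that make, process, bind or degrade collagen were read from 5 lists, of which 62 genes in all passed the limit for testing. Within a diet 1 of the 62 passed an adjusted p, in HFD, where 0.542% of all genes did, namely Timp3, an inhibitor of matrix metalloproteinases, which was up-regulated in HFD-post against HFD-pre (log2 fold change 0.55, SE 0.11, adjusted p = 0.0347 in limma). Its FPKM averaged 40.3 ± 2.3 (SD, n = 4) in HFD-pre and 59.5 ± 6.2 in HFD-post. Averaged over the diets 3 of the 62 passed, 1 up- and 2 down-regulated (3.86% of all genes).

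Of the 19 modification, chaperone and secretion genes, which fold and hydroxylate procollagen, 1 was down-regulated after exercise, Fkbp14, a prolyl isomerase of the endoplasmic reticulum (−0.39, SE 0.11, adjusted p = 0.0497 in limma). Of the 9 procollagen processing and crosslinking genes 0 passed, and 1 was higher and 1 lower at an unadjusted p under 0.05 (3.86% and 18.5% of all genes passed at these levels), with the crosslinking enzyme Lox at 0.57 (SE 0.15, adjusted p = 0.0508 in limma). Lox passed under 7 of 27 alternatives, with adjusted p values from 0.00023 without CON-post replicate 4 to 0.105 without HFD-pre replicate 2. Of the 6 receptors tested 1 was down-regulated, Itga11, the integrin chain that binds fibrillar collagen (−0.35, SE 0.09, adjusted p = 0.0333 in limma).

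Of the 8 degradation genes 1 was up-regulated, Timp3 (0.45, SE 0.08, adjusted p = 0.00387 in limma). Of the 20 collagen-binding matrix proteins 0 passed in limma, and 2 were higher at an unadjusted p under 0.05, against 18.5% of all genes in either direction. The median log2 fold change of the 62 genes was 0.0044, against −0.06 for the 26 collagens and 0.01 for all genes. The collagen median ranged from −0.13 without CON-pre replicate 2 to 0.05 without CON-post replicate 1, and its sign was also positive without CON-post replicate 4 or CON-pre replicate 3. The calls of Fkbp14 and Itga11 were lost under 16 and 11 of 27 alternatives, and that of Timp3 under none of these 27, while its call in HFD alone was lost under 13 of 28.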

How the data were processed

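Quadriceps RNA of 16 mice was measured by RNA sequencing. The authors prepared stranded mRNA libraries, checked reads with FastQC, mapped them with TopHat and quantified genes with Cufflinks, and they deposited FPKM per gene for each library. The labels name build mm9, but gene loci that the study lists overlap those genes in GRCm38 and mostly not in mm9, so the build is unsure. Versions and the strand setting are not given in the sources used here, so reads in bases shared by overlapping genes, such as Col4a1 and Col4a2, cannot be told apart. FPKM carry no read counts, so no count model was used and precision per gene is unknown.

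Of 24487 entries, 27 with names turned into dates were left out and 260 repeated symbols were summed. 0 columns of sample values were unused. Genes averaging at least 0.5 FPKM were fitted with limma 3.58.1 (R 4.3.3) as log2(FPKM + 0.5) in 1 model of 4 groups, letting the variance follow the mean. Benjamini-Hochberg adjustment covered all 11256 genes, and calls were made at an adjusted p under 0.05. The p-values measure the spread between these mice. The code was tested on simulated data. Python 3.11.15, pandas 2.3.3 and matplotlib 3.10.9 were used for tables and figures. Promoter letters are from RefSeq GRCm38.p6.

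The collagen genes, the pathway and marker lists and the tests were chosen with earlier results of these data known. Named with all libraries were called members, those with an unadjusted p under 0.05 and no overlap, and the highest of each class (Col23a1 by its ranges). From the lists, the genes with the smallest p were named. Col3a1, Col4a2, Col5a3, Col15a1, Col2a1, Col10a1, Col11a1 and Col17a1 were singled out after their values had been seen. Alternatives changed the pseudocount, filter, scaling, trend, weights, repeated symbols, groups fitted and block, and left out each library. A further pathway list is not reported here.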

Additional observations from a re-analysis of the deposited data

Results flagged for a closer look

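In 4 of the 104 pairs of a collagen and a group, 1 library lay far from the 3 others by Dixon's test, which chance gives in about 1 of 20 groups. Col11a1 was 0.773 FPKM in CON-pre 3, against 0.377 FPKM for the next library of that group. Col11a1 was 0.982 FPKM in HFD-pre 4, with the next library at 0.487 FPKM. Col11a2 was 1.36 FPKM in CON-post 3, with the next library at 0.483 FPKM. Col24a1 was 0.736 FPKM in CON-pre 4, under the next lowest library at 0.873 FPKM. The fit uses all 4 libraries of each group.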

How the results depend on the processing

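The count of collagens called was 0 under all 28 alternatives run for each contrast of 2 groups, and under all 27 run for the interaction and for the averaged diet contrast. For post against pre averaged over the diets it was 1, Col6a6. It was 0 with a mean of at least 1 FPKM required, since Col6a6 was then not tested, and 2 with median-of-ratios, quantile or upper-quartile scaling or with no mean-variance trend, Col24a1 being the second. Leaving out 1 library gave 1 to 2, with 2 without CON-post replicate 3 or HFD-post replicate 4. Col6a6 passed in 26 of the 26 alternatives that tested it, with log2 fold changes from −0.58 to −0.30. Over all genes the count called ranged from 21 to 63 (39 as reported) for HFD-pre against CON-pre, from 72 to 187 (125) for CON-post against CON-pre, from 21 to 78 (61) for HFD-post against HFD-pre, from 2 to 19 (17) for HFD-post against CON-post, from 0 to 1 (0) for the interaction and from 246 to 591 (435) for the averaged exercise contrast. At an unadjusted p under 0.05, collagens passing numbered 1 to 4 (2 as reported), 0 to 4 (1), 1 to 6 (3), 0 to 3 (0), 0 to 1 (0) and 2 to 8 (4) in the same order. No call changed its direction, and no scaling moved the median of all genes by over 0.1 on the log2 scale.

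The deviations of same-numbered libraries correlated between −0.22 and 0.21 (median −0.02), and those of differently numbered libraries of other groups between −0.22 and 0.21 (median 0.02). Of 16 libraries 6 correlated best with their own number. A pairing by replicate number was thus not seen, but correlations over all genes cannot exclude one. With the replicate number as a block the collagens called in the averaged post against pre contrast were 1, as without it, and 0 in the other contrasts. The block ended the calls of Fkbp14 and Itga11. Depth is unknown, so a gene near the limit of 0.5 FPKM may rest on few reads.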
